A study of Mus musculus with 6 samples.

Results

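The transcriptome of the normal mouse heart at embryonic day 9.5 was described from the 3 wild-type samples among the 6 samples of the study. Each of the 3 was a pool of hearts from 4 wild-type embryos, dissected in cold saline as the heart tube together with the pharyngeal mesoderm and endoderm beneath it. RNA from each pool was labelled with a single dye, Cy3, and hybridised to 1 Agilent mouse expression array. The labels give the genotype as wild type and the stage as E9.5, and they name no allele, agent, strain or sex. The other 3 samples, pools of Arid3b-null hearts, were not used for any value below. The 3 wild-type pools are separate sets of embryos, so their spread holds both embryo-to-embryo and technical differences. The 3 wild-type arrays lay on 3 different slides, so a difference between pools and a difference between slides cannot be told apart.

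At this stage the heart is a looped, beating tube. Its outer layer is myocardium and its inner lining is endocardium, with matrix between them that is invaded at the atrioventricular canal and outflow tract to form the cushions from which valves grow. Progenitors in the pharyngeal mesoderm, the second heart field, are still being added to the ends of the tube, and the pharyngeal endoderm and neural crest next to them supply signals and cells. The blood inside the tube carries primitive red cells made in the yolk sac.

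A level is the log2 of a probe's signal minus the 75th percentile of all non-control spots on the same array, so a level of 0 is the signal that 75% of spots do not exceed and each unit is a doubling. Of 43020 non-control spots per array, 67.7% to 72.2% were well above background and 0 were saturated. The array of pool 3 was the brightest, with a 75th percentile of 10.16 on the log2 scale against 9.5 and 9.57 for pools 1 and 2. A gene was kept where a probe of it was well above background on all 3 arrays, and its brightest such probe gave its level. This kept 20925 of 32530 genes or target names, or 64.3%. Among those with a gene symbol 14803 of 20021 were kept, or 73.9%, the share to set beside the marker counts below. Levels ran from -6.88 to 8.98 with a median of -1.02. Signal depends on how well a probe binds as well as on how much transcript there is, so the order of genes below is an order of signal and not of transcript number. The number of arrays, 3, limits the precision of every value, and with 1 group there is no test.

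The brightest probes belonged to histone H2A genes, cytoskeletal and contractile proteins, ribosomal proteins and glycolytic enzymes. Among the 20 brightest genes with a symbol were 8 H2A genes, with H2ac12 reading 9.06, 8.82 and 8.40 in pools 1, 2 and 3. H2A genes are near-identical copies, so their probes may share signal and none of the 8 can be told from the others here. Cardiac actin, Actc1, the thin filament actin of heart muscle, read 8.77, 8.65 and 8.52 (mean 8.65 ± 0.13 SD, n = 3). Myl4, the atrial and embryonic essential myosin light chain, read 8.55, 8.33 and 8.06. Both muscle genes stood among the 20 brightest, beside the tubulin Tuba1b (mean 8.55), cytoplasmic actin Actb (8.45), the glycolytic enzyme Gapdh (8.46) and the ribosomal proteins Rpsa (8.33) and Rplp0 (8.31). Of the 50 brightest genes with a symbol, clone and predicted names skipped, 16 encoded ribosomal proteins, 8 histones, 4 sarcomere proteins and 3 glycolytic enzymes. The 200 brightest picked in this way reached down to a level of 6.02. They held 67 ribosomal protein, 12 histone, 10 sarcomere, 9 glycolysis and hypoxia and 4 red cell genes. They are not the 200 brightest of all kept genes, since the skipped names also hold bright probes. In the top 1% of all kept genes were 34 members of the ribosomal list, 7 of the sarcomere list, 4 of the glycolysis and hypoxia list and 2 of the red cell list.

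Several of the 20 brightest genes are not known as heart muscle genes, and for 4 of the 20 the next probe of the gene was over 5 log2 units dimmer. F10, which encodes the liver clotting factor X, read 9.0, 8.72 and 8.46 by its brightest probe and -1.33, -1.24 and -0.98 by its other probe. Elk1, a transcription factor that binds with serum response factor, read 8.64, 8.42 and 8.0 by one probe and -4.05, -3.86 and -3.71 by another. Kctd14, of the potassium channel tetramerisation domain family, read 8.79, 8.50 and 8.07 by its brightest probe and -5.10, -5.88 and -5.61 by the next. Of the 50 brightest genes 28 had another probe, and for 11 of them it was over 5 log2 units dimmer. The same gap was found in 12.7% of all kept genes with a symbol and another probe (589 of 4653), in 2 of 51 such ribosomal protein genes and in 1 of 7 such sarcomere genes. The exception among sarcomere genes was Myh6, whose other probe read 1.92, 1.82 and 1.20. Which probe of such a pair follows the gene was not tested, so F10, Elk1, Kctd14 and H2aj are reported as bright probes rather than as abundant transcripts. The same limit holds for Myh6 and the others of the 11.

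The brightest probes also shared an order of pools. All of the 20 brightest genes and 48 of the 50 brightest were lowest in pool 3, where 45.4% of all kept genes were. Pool 1 was highest for 45 of the 50, against 46.4% of all kept genes. After quantile normalization, which gives all arrays the same distribution of signal, pool 3 was lowest for 28 of the 50 (43% of all kept genes). Pool 1 was then highest for 26 (39.2%). Under median scaling pool 3 was still lowest for 48 (43.4%), and pool 1 was highest for 33 (31.9%). With normexp background correction these counts were 44 (59.3%) and 46 (52.7%). The other probes of these genes shared the order in some cases and not in others. The brightest Gapdh probe read 8.53, 8.58 and 8.26, lowest in pool 3. Each of its 6 other probes was highest in pool 3, for example 3.90, 4.49 and 5.0. Both other probes of Rplp0 were lowest in pool 3, for example 7.56, 7.34 and 7.22, as was the second probe of H2ac15 (6.38, 6.10 and 5.88). Pool 3 was also the array with the brightest signal as a whole. Its highest level was 8.64, where the scanner would saturate at 9.41.

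**Figure D1:**
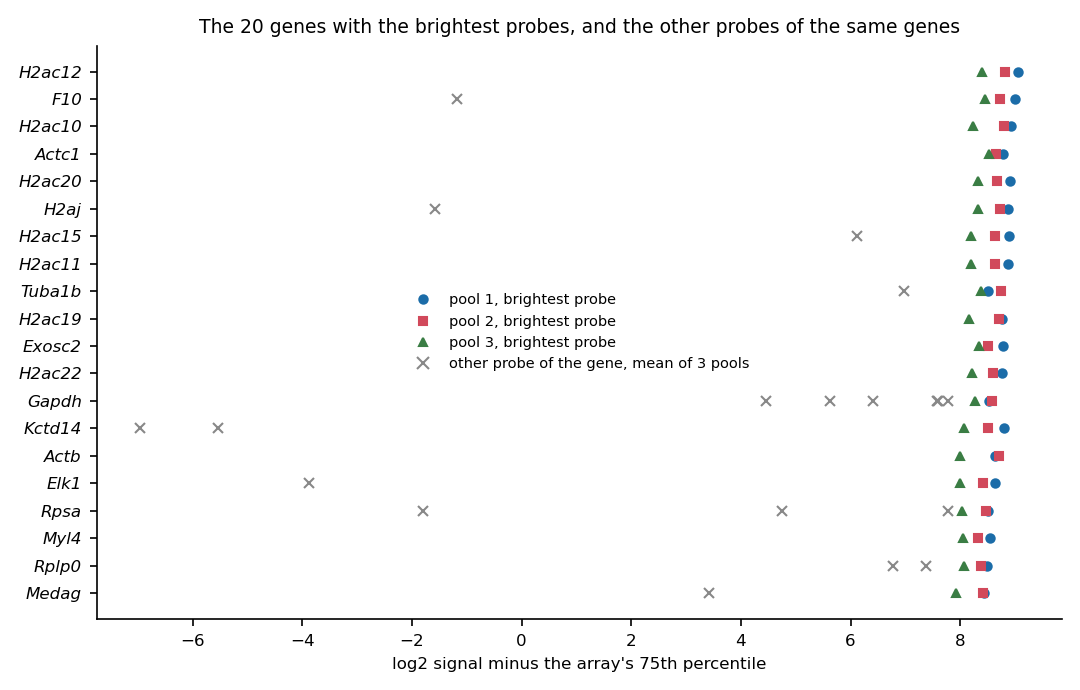
Levels (log2 signal minus the array's 75th percentile) of the 20 genes with the brightest probes in pools 1, 2 and 3, with the mean level of each gene's other probes as crosses. The brightest probes lie close together and lowest in pool 3, while the other probes of F10, H2aj, Kctd14 and Elk1 and 1 of the 3 of Rpsa lie below 0.

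Heart muscle was the tissue most plainly present. All 28 genes of the list of sarcomere proteins of the myocardium were well above background on all 3 arrays, against 73.9% of genes with a symbol, and their median level was 4.40. Of the 28, 24 were above the 75th percentile and 17 were in the top 10% of kept genes. The 3 pools gave list medians of 4.21, 4.31 and 4.47. A range between pools over 1 log2 unit was found in 2 of 28, where 8.81% of all kept genes had one. The intermediate filament gene Des was among them at 1.93, 2.63 and 3.04.

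Among the thick filament genes, Myh7, the slow beta myosin heavy chain of the embryonic ventricle, read 8.25, 8.18 and 7.99. Myh6, the alpha heavy chain, read 8.23, 8.13 and 7.66 by its brightest probe, while its other probe was far dimmer as given above. These heavy chains are close in sequence and their probes may share signal, as may that of the perinatal skeletal heavy chain Myh8, which read 6.07, 5.83 and 5.82. The ventricular light chain Myl2 read 7.83, 7.41 and 7.61, and the essential light chain Myl3 read 7.92, 7.68 and 7.70. The atrial regulatory light chain Myl7 read 6.81, 6.60 and 6.72. Light chains of both chambers were thus well above the 75th percentile in every pool, and Myl7 differed between pools by less than the median range of all kept genes, 0.46.

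Thin filament and regulatory genes were bright as well. Troponin T, Tnnt2, read 6.5, 6.52 and 6.57 (SD 0.04, n = 3), a smaller spread than that of any other gene of the list but Cryab (SD 0.02). The slow skeletal troponin I that embryonic hearts use, Tnni1, read 5.62, 5.48 and 6.17, and the adult cardiac isoform, Tnni3, read 3.74, 3.56 and 3.94. Both isoforms were measured in every pool, and in each the lowest was pool 2. The giant spring protein Ttn read 3.19, 2.93 and 3.44 by its brightest probe, while its 3 other probes had means of 1.87, -0.88 and -2.46. The dimmest sarcomere genes were Myoz2 (mean -1.56), Nebl (-3.07) and Myom2 (-4.93), which encode Z-disc and M-band proteins.

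Promoter sequence of sarcomere genes is shown because the CArG box, the element bound by serum response factor, is known from muscle promoters and could be looked for in these genes. RefSeq promoter windows on GRCm38.p6, from 250 bases before to 50 bases after the start of a gene, were held for 23 of the 28 genes in 32 windows. A CArG box was found on either strand, overlaps with other motifs allowed and each site counted once, in 8 of the 32 windows, or 25.0%, against 1.63% of all 32851 windows. The genes were Acta1, Actc1, Ldb3, Myl3, Myl7, Myom1 and Nebl. Windows of red cell genes held a CArG box in 9.09% (2 of 22) and those of ribosomal protein genes in 1.45%. A MEF2 box was found in 9.38% of the 32 windows (Mybpc3, Myoz2 and Ttn) against 0.557% of all windows. The 150 bases before the start site are given below for the bright thin filament gene Actc1 (chr2:114052876-114053025, minus strand) and the atrial light chain Myl7 (chr11:5898783-5898932, minus strand), 5′ to 3′ along each gene, with the CArG box in capitals.
Actc1: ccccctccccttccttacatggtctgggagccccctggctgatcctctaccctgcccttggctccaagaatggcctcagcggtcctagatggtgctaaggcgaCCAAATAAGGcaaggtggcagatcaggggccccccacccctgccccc
Myl7: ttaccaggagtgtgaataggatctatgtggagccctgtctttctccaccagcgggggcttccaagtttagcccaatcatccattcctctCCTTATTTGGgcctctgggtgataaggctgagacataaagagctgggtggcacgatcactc
The box lay 47 to 38 bases before the start of Actc1 and 61 to 52 bases before that of Myl7. A match of letters is a description of the window and does not show that a factor binds it, and both genes were bright in all 3 pools with mean levels of 8.65 and 6.71.

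The transcription factors that specify the heart were all measured. All 23 of the list were well above background on all 3 arrays, with a median of 1.79 and 17 above the 75th percentile. Nkx2-5, the homeobox factor of the early heart field, had the highest signal at 3.95, 3.98 and 4.12 (mean 4.02 ± 0.09 SD, n = 3). The T-box factor Tbx5, which marks the atria and left ventricle, read 2.44, 2.52 and 2.74. The zinc finger factor Gata4 read 2.13, 2.27 and 2.86. Hand2, the basic helix-loop-helix factor of the right ventricle and arches, ran in the opposite order at 2.74, 2.26 and 1.73, while Tbx20 read 1.97, 1.93 and 1.48 by the brightest of its 3 probes. Hand1, its relative in the left ventricle, was 1 of the 2 members with a range over 1, at 1.42, 0.79 and 1.98. The dimmest member was Hey2, the ventricular Notch target, with a mean of -2.47 (SD 0.04, n = 3), and Arid3b itself read 2.91, 3.40 and 3.69 in these wild-type hearts by its brightest probe. Its other probes had means of -1.73 and -3.71, and which of them follows the gene was not tested.

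Genes of the chambers and the atrioventricular canal had a median of 2.01, and 11 of 12 were kept. Nppa, atrial natriuretic factor and a marker of working chamber muscle, read 6.52, 6.42 and 6.59. Cited1 and Bmp4 had means of 4.89 and 3.94. Bmp10, a growth factor of trabecular muscle, was dim at -3.96, -4.24 and -4.37, and the adult creatine kinase Ckm was dimmer still with a mean of -5.04. Genes of calcium handling and excitation had a median of -1.32 with 17 of 18 kept, led by the calcium pump Atp2a2 (4.03, 4.29 and 3.99). The pacemaker channel Hcn4 was well above background on only 1 array. Its probe was the sole member of this list that was not kept.

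Progenitors at the ends of the tube were also represented. All 16 genes of the second heart field list were kept, with a median of 0.41. Eya1 read 3.31, 3.75 and 2.84, and Tbx1, the T-box factor of pharyngeal mesoderm, read 2.88, 3.31 and 3.11. Isl1, the LIM homeobox factor that defines these progenitors, read 0.11, -0.02 and -0.57, and the growth factor Fgf10 had a mean of -1.71. Of the 16 genes 11 were highest in pool 2 and 0 were lowest there, where 24.1% and 30.5% of all kept genes were. The count highest in pool 2 was 11 of 16 under quantile normalization, where 28.1% of all kept genes were, and 11 under normexp background correction, where 25.4% were. It was 13 under median scaling, where the share of all kept genes rose to 37%, and 10 of 15 in the authors' table, where it was 26.6%. Under normexp 1 gene was lowest in pool 2.

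The inner lining was present with lower signal than the muscle list. All 24 endocardial and endothelial genes were kept, with a median of 0.13 and 12 above the 75th percentile. Egfl7, a secreted endothelial protein, read 4.68, 4.39 and 4.26, and Ramp2, part of the adrenomedullin receptor, read 4.19, 4.10 and 3.97. The VEGF receptor Kdr had a mean of 2.36. Nfatc1, the transcription factor that marks endocardium and the valve region, read -0.30, 0.01 and -0.56. Pecam1, the general endothelial adhesion molecule, was dimmer at -2.85, -2.20 and -1.89. The 3 pools gave list medians of 0.06, 0.25 and 0.12, and 1 of the 24 genes was lowest in pool 2, against 30.5% of all kept genes. Cushion mesenchyme genes were kept in 13 of 13 cases with a median of 0.66, led by the collagen genes Col1a2 (mean 3.52) and Col3a1 (2.48), while the maturing-valve gene Postn stood lowest at -1.77, -3.28 and -2.96. Smooth muscle genes were kept in 11 of 11 cases with a median of 0.03. They were split between Acta2 (7.15, 7.31 and 7.38), Tagln (mean 5.90) and Cnn1 (5.12), which embryonic heart muscle also expresses, and the mature smooth muscle gene Myh11, with a mean of -5.40.

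Of the pharyngeal endoderm list 20 of 20 genes were kept, at a median of -0.56. The keratins Krt18 (5.20, 5.10 and 4.91) and Krt8 (2.25, 2.55 and 3.07) led it, and both are shared with other simple epithelia. Nkx2-6 had a mean of 2.05. Foxa2, the forkhead factor of foregut endoderm, read -0.46, -0.23 and -0.88. The pouch factor Pax9 read -1.80, -1.29 and -1.64, and the thyroid and lung factor Nkx2-1 read -2.61, -2.93 and -3.15. Foxa2, Pax9 and Nkx2-1 were dim but above background in every pool, each with a range under 1. Their levels lay below that of Cpa1 (mean -0.002), a gene of an organ absent from the dissection, so they do not by themselves show endoderm. Pharyngeal and splanchnic mesoderm genes were kept in 13 of 14 cases with a median of -0.85, and 4 of the 13 had a range over 1, against 8.81% of all kept genes. With normexp it was 1 of 13, against 2.72%. Genes of neural crest and arch mesenchyme were kept in 18 of 18 cases with a median of -1.07. Prrx2 was the brightest of them with a mean of 4.24, and the crest factor Sox10 read -1.59, -0.29 and -0.47. Of the 18, 11 were highest in pool 2, against 24.1% of all kept genes, and this count was 10 under quantile normalization, 14 under median scaling, and 12 under normexp and in the authors' table, to be read against the same shares of all kept genes.

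The epicardium, which spreads from the proepicardium over the tube at about this stage, gave 11 of 11 genes kept and a median of -1.85. Wt1 read 0.69, -0.01 and 0.13, and Tbx18 read -1.33, -1.91 and -1.19. Of the 11 genes 7 were lowest in pool 2, against 30.5% of all kept genes, and the count was 7 under quantile normalization, median scaling, normexp and the authors' table, where between 21.2% and 27.1% of all kept genes were.

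**Figure D2:**
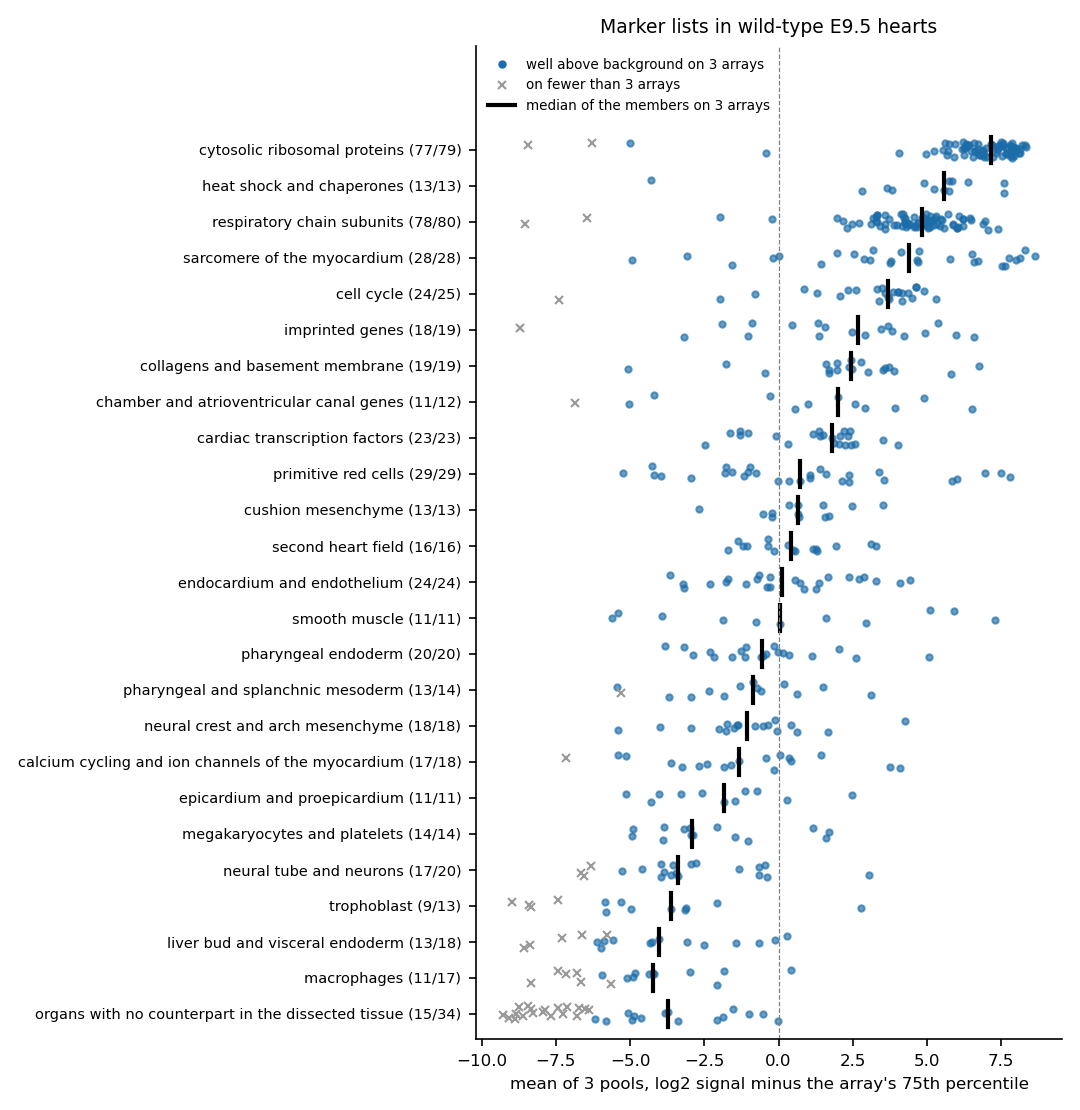
Mean level over 3 pools (log2 signal minus the array's 75th percentile) of each gene in 25 of the 31 marker lists, with crosses for genes not well above background on all 3 arrays and a bar at the median of those that were. Numbers in brackets give the genes kept of those on the array. The sarcomere median lies at 4.40, the red cell median at 0.71, the endocardial median at 0.13 and the pharyngeal endoderm median at -0.56.

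Blood was present at high signal. All 29 red cell genes found on the array were kept, with a median of 0.71, 16 above the 75th percentile and 6 in the top 10%. The embryonic beta-like globins Hbb-y and Hbb-bh1 had means of 7.51 and 6.96, and the embryonic alpha-like globin Hba-x had a mean of 5.86. The alpha globins Hba-a1 and Hba-a2, which are near-identical copies whose signal cannot be divided between them, had means of 6.02 and 7.80. The adult beta globins Hbb-bt and Hbb-b2, also near-identical, had means of 2.38 and 1.59, and Hbb-bh2 was not well above background on all 3 arrays. Hbb-b1 was not matched to a probe by symbol.

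The red cell list set pool 2 apart. Hbb-y read 7.99, 6.96 and 7.57 in pools 1, 2 and 3, and its second probe 7.91, 6.55 and 7.63. Hbb-bh1 read 7.48, 6.33 and 7.08, and Hba-x read 6.08, 5.06 and 6.42. Pool 2 was lowest for every one of these, and pool 1 exceeded it 2.04-fold for Hbb-y, 2.22-fold for Hbb-bh1 and 2.02-fold for Hba-x. In bulk tissue, fewer cells of a type and less RNA per cell cannot be told apart.

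Pool 2 was also lowest for genes beyond the globins, though the order of pools 1 and 3 differed between genes. Alas2, the red cell enzyme that starts haem synthesis, read 1.14, 0.43 and 1.61, the erythroid factor Klf1 read -0.96, -1.53 and -0.40, and the membrane protein Epb42 read -4.68, -6.20 and -4.85 (these 3 were chosen after their values were seen). At -6.20 Epb42 lay near the lowest mean level of a kept gene, -6.88. Gata1, the erythroid and megakaryocyte zinc finger factor, read -0.50, -1.19 and -0.58. Of the 29 genes 22 were lowest in pool 2, against 30.5% of all kept genes, and 11 had a range over 1, or 37.9% against 8.81%. Under quantile normalization, median scaling and normexp, 20 to 23 of the 29 were lowest in pool 2, and 18 of 23 were in the authors' table, against the same 21.2% to 27.1% of all kept genes. With a pool left out, which makes ranges smaller, 8 of 29 had a range over 1 without pool 1 (2.37% of all kept genes), 2 without pool 2 (5.96%) and 5 without pool 3 (3.46%). In the same pool 11 of 16 second heart field genes and 11 of 18 neural crest genes were highest and 7 of 11 epicardial genes lowest, and the part of the dissected cell mixture in these orders was not tested.

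The adult beta globins did not share the low reading of pool 2. Hbb-bt read 1.56, 2.33 and 3.26, and Hbb-b2 read 1.01, 1.07 and 2.71. Both were highest in pool 3 and lowest in pool 1. Their ranges of 1.71 and 1.70 were among the 10 largest of genes above the 75th percentile, in the opposite direction of pools 1 and 3 from Hbb-y and Hbb-bh1.

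Promoter windows were held for 20 of the 29 red cell genes in 22 windows. CACCC, the core of the element bound by erythroid Krüppel-like factor, was found on either strand in 90.9% of them, against 57.5% of all windows. It was found in 68.8% of sarcomere, 66.7% of Hox and 53.6% of ribosomal protein windows. TATAAA was found in 27.3% against 13.6%. The motif AGATAA, which factors of the Gata family bind, was found in 22.7% against 11.2%. In sarcomere windows TATAAA and AGATAA were each found in 15.6%, so neither was limited to the red cell list. Each was searched on both strands with overlaps allowed. The windows of the embryonic globin Hba-x (chr11:32276450-32276599, plus strand) and the adult globin Hbb-bt (chr7:103813924-103814073, minus strand) are shown because these genes differed in the order of pools. They are the 150 bases before the start site in RefSeq on GRCm38.p6, 5′ to 3′ along each gene, with CACCC and TATAAA in capitals.
Hba-x: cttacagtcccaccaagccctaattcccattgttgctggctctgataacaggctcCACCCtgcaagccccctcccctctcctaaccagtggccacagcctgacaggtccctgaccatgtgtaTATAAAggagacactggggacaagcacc
Hbb-bt: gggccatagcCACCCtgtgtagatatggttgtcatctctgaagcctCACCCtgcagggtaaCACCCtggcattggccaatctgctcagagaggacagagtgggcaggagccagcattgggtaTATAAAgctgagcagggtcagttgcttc
TATAAA lay 28 to 23 bases before the start in both. Hba-x held CACCC at 95 to 91 bases before the start, and Hbb-bt held it at 140 to 136, 104 to 100 and 89 to 85. These letters describe the windows, and their part in the levels was not tested.

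**Figure D3:**
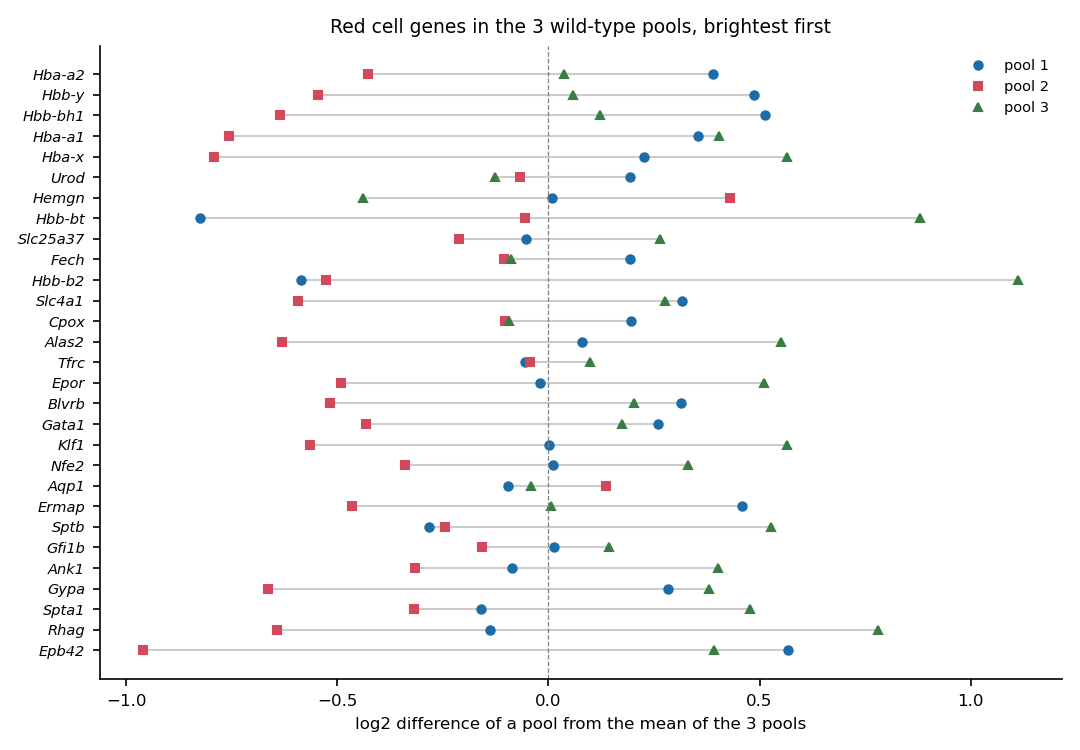
Difference of each pool's level from the mean of the 3 pools (log2) for the 29 red cell genes, ordered by mean level. Pool 2 is lowest for 22 of the 29, and Hbb-bt and Hbb-b2 are highest in pool 3.

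Platelet and myeloid markers were dimmer. Of the megakaryocyte list 14 of 14 genes were kept with a median of -2.92. Pf4, platelet factor 4, read 2.12, 1.05 and 1.92, and 9 of the 14 genes were lowest in pool 2 and 0 highest there, against 30.5% and 24.1% of all kept genes. The count lowest in pool 2 was 7 under quantile normalization (27.1% of all kept genes), median scaling (22.1%) and the authors' table (27%). With normexp it was 6 (21.2%), and 1 gene was highest there (25.4%). Macrophage genes had a median of -4.24 with 11 of 17 kept, and Spi1, the myeloid master factor, was not well above background on any array. Csf1r, the receptor for macrophage growth factor, read 1.5, 0.34 and -0.62 by its brightest probe, but its other probes read -2.42, -3.07 and -3.13, and -3.82, -4.19 and -4.44. Of the 11 kept macrophage genes 9 were highest in pool 1, against 46.4% of all kept genes.

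Lists for tissues outside the dissection gave the floor against which these values can be read. Of 34 genes typical of organs with no counterpart in the dissected tissue, such as lens, retina, testis, kidney and pancreas, 15 were well above background on all 3 arrays and 12 on 0. The kept members had a median of -3.72. Their highest was the pancreatic enzyme gene Cpa1 at -0.11, -0.04 and 0.15. A call of well above background at such levels was therefore also given to genes of absent organs. Liver bud and visceral endoderm genes were kept in 13 of 18 cases (median -4.01, highest 0.27), with Alb and Apoa4 on 0 arrays. Trophoblast genes were kept in 9 of 13 (median -3.62), with Tpbpa, Ctsq, Prl7a1 and Psg17 on 0. The highest trophoblast gene was Gcm1 with a mean of 2.79 by its brightest probe, and 1.54 and -1.20 by its other kept probes. Nkx2-5 (mean 4.02) lay above that highest level, and Gata4 (2.42) and Tbx5 (2.56) lay below it. Single genes of such lists could thus read well above Cpa1. Neural genes were kept in 17 of 20 cases (median -3.39), led by the intermediate filament gene Nes (mean 3.05), which is not limited to neurons. Of 16 fast skeletal muscle genes 8 were kept and 7 were on 0 arrays, among them the myogenic factors Myod1, Myog and Myf5. The kept members had a median of -0.67, near that of the pharyngeal endoderm list (-0.56), and a highest level of 5.91. Above the 75th percentile lay 3 of them, including Myh8, whose probe may share signal with the cardiac heavy chains.

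Hox genes give cells their position along the body axis, those of low paralogue number acting nearer the head. Genes of low number were kept more often here than those of high number. All 15 genes of paralogue groups 1 to 5 were well above background on all 3 arrays, with a median of -0.95. Of groups 6 to 8, 4 of 8 were, with a median of -5.17, and of groups 9 to 13, 2 of 16, with 12 on 0 arrays. Hoxb2 had a mean of 0.89, Hoxb4 of 0.87 and Hoxa3 of 0.37. Within a cluster the levels did not always follow the number, since Hoxb1 had a mean of -1.06 and Hoxd1 (-5.25) lay below Hoxd3 (-2.82) and Hoxd4 (-0.78). The exceptions among the posterior groups, Hoxa9 (mean -5.77) and Hoxc12 (-5.56), lay near the lowest level kept. Of the 21 kept Hox genes 6 had a range over 1, or 28.6% against 8.81% of all kept genes. With normexp background correction it was 1 of 21, or 4.76% against 2.72%.

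**Figure D4:**
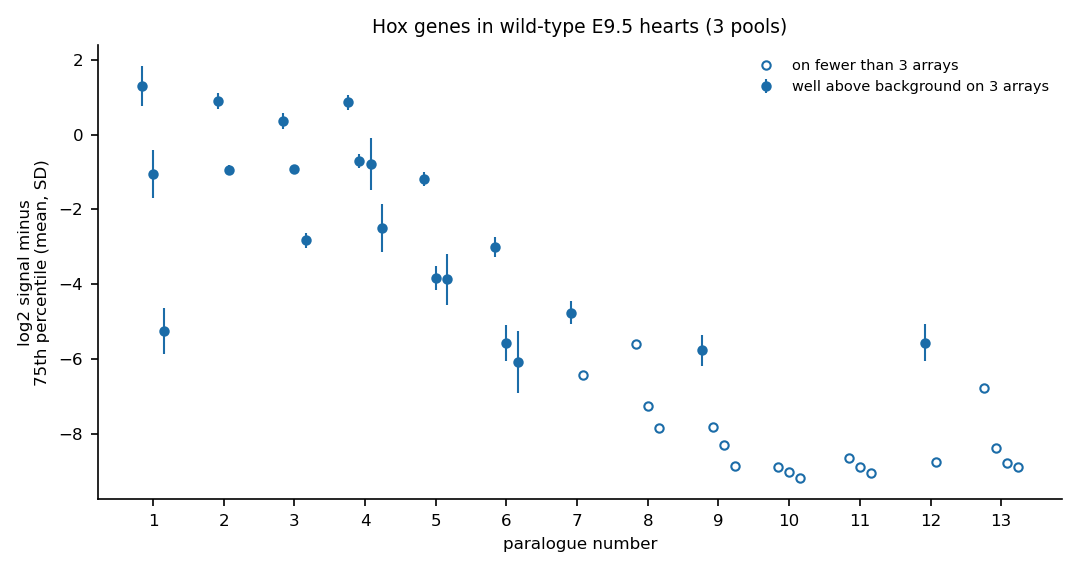
Mean level over 3 pools (log2 signal minus the array's 75th percentile, bars SD) of 39 Hox genes by paralogue number, side by side within a number, with open circles for genes not well above background on all 3 arrays. The 15 genes of groups 1 to 5 are all filled, and 2 of 16 are in groups 9 to 13.

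Growth and housekeeping lists stood high. Ribosomal protein genes had a median of 7.15 with 77 of 79 kept and 75 in the top 10%, and the members not kept were Rpl10l and Rpl39l, testis-linked copies. Respiratory chain subunits had a median of 4.84 with 78 of 80 kept and 63 in the top 10%, led by Cox6a1 (7.73, 7.35 and 7.05). Chaperones had a median of 5.56 with 13 of 13 kept, led by Hsp90ab1 (mean 7.60), while the stress-induced Hspa1a read low with a mean of -4.30. Glycolysis and hypoxia genes had a median of 3.60 with 25 of 25 kept, from Gapdh, Aldoa (8.11) and Ldha (7.97) to the hypoxia target Car9 (-3.61). Cell cycle genes had a median of 3.70 with 24 of 25 kept, led by the replication helicase gene Mcm6 (5.26, 5.53 and 5.10). Collagen and basement membrane genes had a median of 2.45 with 19 of 19 kept, led by Sparc (6.74) and Fn1 (5.81). Cholesterol synthesis genes had a median of 0.85 with 18 of 18 kept. Ribosomal protein genes were highest in pool 1 in 72 of 77 cases and respiratory chain genes in 68 of 78, against 46.4% of all kept genes. After quantile normalization these counts were 48 and 60, against 39.2% of all kept genes.

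Imprinted growth genes were high, with 18 of 19 kept and a median of 2.69. The growth inhibitor Cdkn1c read 6.53, 6.68 and 6.56, Mest had a mean of 5.99, and the growth factor Igf2 read 3.42, 3.62 and 4.01. H19 was not matched to a probe by symbol. Immediate early genes, which dissection can induce, had a median of -1.18 with 19 of 21 kept. Jund (mean 4.21) and Jun (3.32) led them, while Fos read -3.74, -3.50 and -3.86. Of 9 genes of X inactivation and the Y chromosome, 4 were kept and 3 were on 0 arrays. Xist, the RNA of the inactive X, read -1.37, -1.71 and -1.95, the Y-linked Ddx3y read -1.05, -1.51 and -0.88, and Eif2s3y read -0.28, -0.78 and -0.58. The fourth, the Y-linked Kdm5d, had a mean of -5.15. These levels lie below that of Cpa1, so they do not settle the sexes in a pool.

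Most genes varied little between the 3 pools. The median range, highest minus lowest pool, was 0.46, and the median SD was 0.24. Across kept genes, which are not independent replicates, levels of pools 1 and 2 correlated at r = 0.992, pools 1 and 3 at 0.988, and pools 2 and 3 at 0.992. Pools 1 and 3 were the pair with most genes apart by over 1, at 1192, against 719 for pools 1 and 2 and 473 for pools 2 and 3. A range over 1 was found in 1844 of 20925 genes, 8.81%, and over 2 in 84. Among the 8282 genes above the 75th percentile it was 298, or 3.6%. Counting for each of the 1844 genes the pool farthest from the middle one, as a share of all kept genes, pool 1 stood apart on the high side for 3.07% (642 genes), pool 2 for 0.306% (64) and pool 3 for 1.46% (305). On the low side the shares were 1.29%, 1.26% and 1.43%. The share with a range over 1 was 18.9% at levels between -6 and -4 and 1.5% above 6, as the plot of range against level shows.

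Probes printed repeatedly showed how much spread arose within an array. Of 399 probes printed 10 times per array, 303 were kept. Their median SD within an array was 0.064 and between pools 0.205, and for 272 of the 303 the spread between pools was the larger. For those above the 75th percentile the medians were 0.052 and 0.172.

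**Figure D5:**
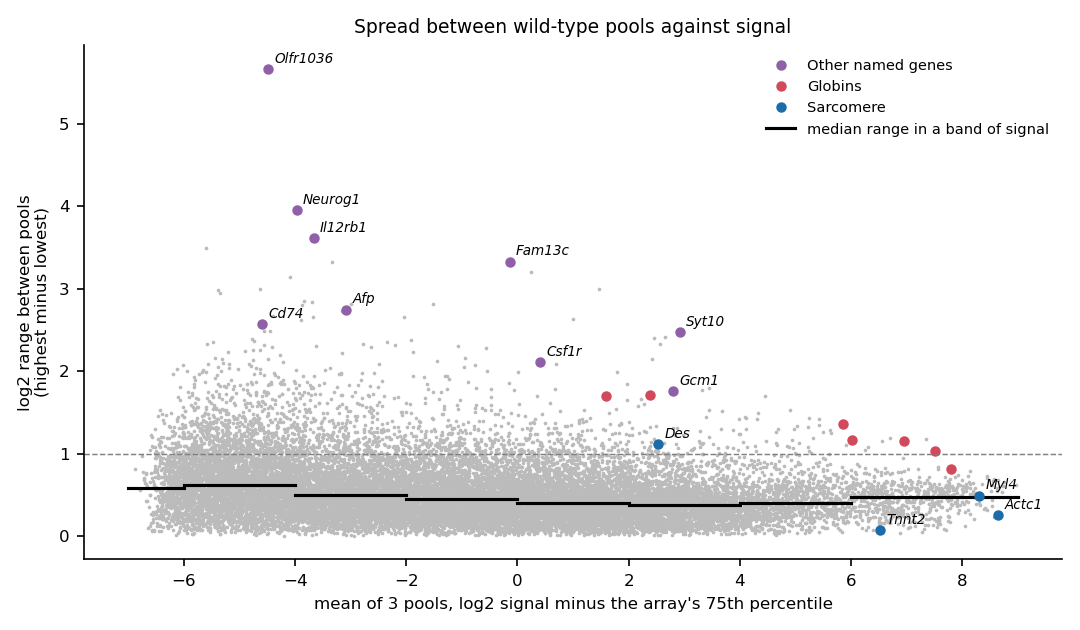
Range between the highest and lowest pool (log2) of each of 20925 kept genes against its mean level over 3 pools, with black bars for the median range in bands of level and a dashed line at 1. Olfr1036 and Neurog1 have the largest ranges among genes with a symbol, most globins lie above the line, and Actc1, Myl4 and Tnnt2 lie below it.

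The most variable genes were mostly dim. Of the 50 largest ranges, 40 were in genes with a mean level below -2. The largest was the olfactory receptor gene Olfr1036 at -6.07, -0.86 and -6.53, whose other probe was not well above background on any array. Neurog1, the proneural factor of cranial ganglia, read -1.37, -5.21 and -5.33, so it stood high in pool 1. Afp, the fetoprotein of visceral endoderm and liver bud, read -1.81, -4.55 and -2.88, lowest in pool 2. Il12rb1, an interleukin receptor chain, read -4.38, -1.51 and -5.12 by its brightest probe, and by its other probe -5.23, -4.91 and -5.44. Fam13c read 1.47, -0.04 and -1.86 by its brightest probe, while its other probe had a range of 0.37. The other 15 of the 20 largest were Olfr224, Spem2, Pilra, Nox1, Sox14, Hydin, Prap1, Ambp, Cd74, Guca2b, Tbc1d21, Syt10, Tbx21, Prl8a2 and Dact2, with ranges from 2.30 to 3.49. Of the 50 genes 9 had a second kept probe. It placed the highest and lowest pools alike for 6 of them, with a median range of 0.53 and a range over 1 for 3.

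Among genes above the 75th percentile the variable set was led by Syt10, a synaptotagmin, at 3.35, 1.47 and 3.94. Gcm1, the trophoblast factor, read 3.23, 1.70 and 3.46 and by its second probe 2.20, -0.13 and 2.54, while the third probe read -0.84, -1.25 and -1.51 and the fourth was not above background on any array. Syt10, the brighter Gcm1 probes and Dnajb6 were lowest in pool 2, where 30.5% of all kept genes were. The rest of the 10 largest ranges in this set were lowest in another pool. Anp32a, a histone chaperone, was lowest in pool 1 at 2.28, 4.08 and 4.0 by its brightest probe and highest there by its other probe, which read -1.45, -1.73 and -1.97. The U1 small nuclear RNA gene Rnu1b6 was highest there at 4.21, 3.30 and 2.44. The others of the 10 were Csf1r, Dnajb6, Hbb-bt, Srrt, Hbb-b2 and Ppp2r1a, with ranges from 1.65 to 2.11. Of the 50 largest ranges above the 75th percentile 13 had a second kept probe, which gave the same highest and lowest pools for 4, with a median range of 0.52 and a range over 1 for 3.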

How the data were processed

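Only the 3 wild-type arrays were used. Per the file headers, the deposited intensity values come from Agilent's array design 026655, read with Feature Extraction 10.7.3.1. They are background-subtracted processed signals, not scaled between arrays, with flags for spots that are well above background, saturated or outlying. The table deposited by the authors has log2 values, for 24158 of the probes. Its scaling is not given in these sources. It served as an alternative, and its 3 columns for the other group were not used.

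Levels were computed as log2 signal minus the 75th percentile of the non-control spots of the same array. Spots with an outlier flag were dropped, and those remaining for a probe were averaged. A probe was kept if over 50% of its spots were well above background on each of the 3 arrays, and the brightest kept probe stood for a gene. Of 39429 probes, 26424 had a symbol through a RefSeq or Ensembl accession listed in a RefSeq table of GRCm38.p6 genes. The other 13005 kept the target name given for them. The file headers name mm9, so only promoter windows of the RefSeq table carry positions. The order of computation was checked on simulated data. Work was done in Python 3.11.15, pandas 2.3.3 and numpy 2.4.6, with normexp in limma 3.58.1 (R 4.3.3) and data.table (version 1.17.8).

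The genes named were the 20 brightest, the 20 with the largest range, the 10 with the largest range above the 75th percentile, in each of 31 lists the 5 brightest members and up to 3 not above background on any array, and a fixed set of genes. Names that only denote a clone or prediction were skipped, and some genes that the rule takes are given only within their counts. Others that are named were chosen after their values were seen. The members, lists and rule were chosen with earlier results of these data known. Alternatives were quantile normalization, median scaling, normexp with an offset of 50 on the median spot signal, probes well above background on at least 1 array, keeping outlier spots, averaging all probes of a gene, the authors' table, leaving out each pool and, for the ranges, only genes above the 75th percentile.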

Additional observations from a re-analysis of the deposited data

How the results depend on the processing

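No paired analysis was possible because only 1 group was used. The count of kept genes was 23447 with probes well above background on at least 1 array, 20931 with outlier spots kept, 20986 to 21813 with a pool left out and 17703 among the probes that the authors' table holds. Of the 50 brightest genes, 31 were among the 50 brightest with the mean of a gene's probes and 5 in the authors' table, which holds 17 of the 50, and at least 44 under the other alternatives (47 to 49 with a pool left out). The count of genes with a range over 1 was 298 above the 75th percentile, 569 with normexp, 3393 with probes well above background on at least 1 array, and 502 to 1301 with a pool left out (502 without pool 1, 1301 without pool 2 and 726 without pool 3). Fewer pools give smaller ranges by construction. Of the 50 largest ranges, 3 remained above the 75th percentile, 21 with normexp, 4 with probes well above background on at least 1 array, and 23 to 26 with a pool left out. The red cell median of 0.71 was 0.057 with the mean of a gene's probes and -0.75 in the authors' table, which holds 23 of the 29 genes. The sarcomere median was 4.05 with normexp and 3.76 with the mean of probes, the endocardial median 0.23 with normexp, and the pharyngeal endoderm median -0.84 with the mean of probes. With a pool left out these medians ran from 0.66 to 0.74, 4.31 to 4.41, 0.10 to 0.20 and -0.67 to -0.41. Of the 84 named genes tried, 21 moved by more than the SD between pools with the mean of probes, 15 with normexp and 14 of 71 in the authors' table. Under the other alternatives 0 moved, but for most of them this was largely fixed in advance. Median scaling as used here leaves a probe's mean over pools unchanged. Leaving out a pool cannot move a probe's mean by more than its SD. Keeping outlier spots and the looser filter leave the values of most kept probes as they were. Where the cause is not given, it was not tested. Signal over background limits the dim genes: probes on all 3 arrays began at -6.88 after averaging per gene, and ranges were widest below -4.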
